A study of Mus musculus with 6 samples.

Results

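Complex I of the respiratory chain was described here at the level of its transcripts in mouse kidney. The genes were those whose array probe the platform annotation gives exactly 1 symbol starting with Nduf, and for each gene the probe with the highest mean over the 6 arrays was used. This gave 39 genes of 18048 with a probe of a single symbol. Of the 39, 38 were bright enough to be tested, beside 14817 genes tested in all, and 38 of 38 lay above the low-signal limit on every array. The gene left out as dim was Ndufaf8, whose values lay below the limit on the 5 arrays that had one. RNA came from frozen kidney tissue of 6 perfused mice, 3 of them wild type and 3 homozygous mutant, each measured on its own array. The sources used here do not name the mutated gene, the strain or the age, and the genotype labels were therefore not checked against a transcript. A level is the log2 of the intensity over the median of its array. A difference is the mutant mean minus the wild-type mean on that scale, followed by its SE from a limma fit over all probes. A gene is said to have fallen or risen only past a Benjamini-Hochberg adjusted p of 0.05.

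Complex I is the NADH dehydrogenase of the inner mitochondrial membrane. It passes electrons from NADH through flavin and iron-sulfur clusters to ubiquinone and pumps protons, and so feeds the gradient that drives ATP synthesis. Its peripheral arm reaches into the matrix and carries the redox centres, and its membrane arm carries the proton channels. The core subunits do the chemistry. Most Nduf genes encode accessory subunits around that core, and Ndufaf genes encode assembly factors that help to build the complex and are not part of it. Tubule cells of the kidney, those of the proximal tubule in particular, are rich in mitochondria and draw most of their ATP from this chain.

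Differences of complex I transcripts in mutant kidney were small and nearly all negative in sign. Of these differences 1 passed the test, and many lay within 1 SE of 0. The fitted difference was negative in 35 of 38 genes, against 42.5% of all genes tested, and its median was -0.19 log2 units, or 12.2% lower, against 0.08 over all genes. Ndufa9 fell, and no other gene of the 38 passed in either direction, where 1.59% of all genes were lower and 5.67% higher past the threshold (235 and 840 genes, but 403 and 700 after quantile normalization and 398 and 745 after cyclic loess). At an unadjusted p of 0.05, 6 of 38 genes (15.8%) were lower and 0 higher, against 6.29% and 14.6% of all genes. These were Ndufa9, Ndufv1, Ndufaf1, Ndufc2, Ndufv2 and Ndufs1. The 3 mutant arrays all lay below the 3 wild-type arrays in 10 of 38 genes (26.3%) and all above in 0, against 8.89% and 17.8% of the genes with 6 values.

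Bright probes are measured more precisely, and the Nduf probes were bright. Other genes whose mean level lay within the interquartile range of the Nduf genes, from 4.78 to 7.27 log2, numbered 1190. Among these, 20.1% had mutant arrays all below wild-type arrays, 18.2% were lower at an unadjusted p of 0.05, and 8.07% fell past the adjusted threshold. The shares among all 38 Nduf genes, those outside this range included, were 26.3%, 15.8% and 2.63%. The median SE was 0.17 over the 38 Nduf genes and 0.15 over the 1190 other genes. The difference was negative in 49.1% of those genes, with a median of 0.01, and in 92.1% of the Nduf genes.

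**Figure D1:**
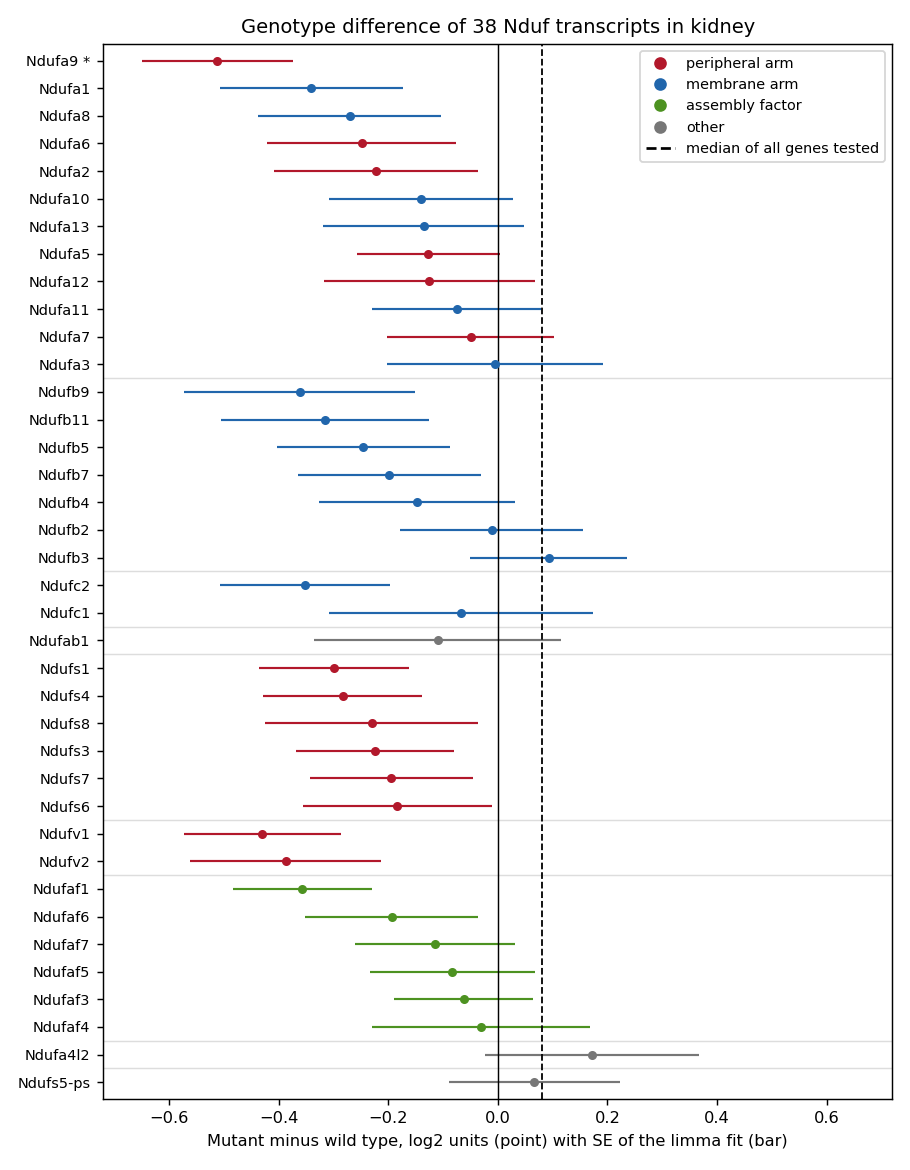
Difference between genotypes for each of the 38 Nduf genes tested, in log2 units (negative where mutants are lower), with a bar for the limma SE and the star on the gene past an adjusted p of 0.05. Colours mark the arm of the complex, grey lines separate the name groups, and the dashed line is the median of all genes tested (0.08); 35 of the 38 points lie left of 0.

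The upstream windows of a few members are printed as examples and do not stand for the family. Each is the 250 bases before the RefSeq gene start (GRCm38.p6), on the gene's strand, from a table that held 33 of the 39 genes. Searches on both strands used GCATGCGC for Nrf1, CCGGAAGT for Gabpa, TCAAGGTCA for Esrra and ATGGCGGC for Yy1, factors known from promoters of respiratory genes. Capitals mark the Nrf1 letters, whose forward and reverse forms overlap in their shared centre. Ndufa9 is shown as the gene past the threshold and Ndufv1 as the next by p. Ndufa6 and Ndufa8 were picked from the 4 genes with the Nrf1 letters.
Ndufa9 (chr6:126849145-126849394, minus strand): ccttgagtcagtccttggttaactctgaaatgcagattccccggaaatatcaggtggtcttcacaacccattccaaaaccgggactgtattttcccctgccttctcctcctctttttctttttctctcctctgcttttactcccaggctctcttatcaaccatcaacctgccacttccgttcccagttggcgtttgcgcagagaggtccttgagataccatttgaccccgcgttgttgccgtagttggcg
Ndufv1 (chr19:4012756-4013005, minus strand): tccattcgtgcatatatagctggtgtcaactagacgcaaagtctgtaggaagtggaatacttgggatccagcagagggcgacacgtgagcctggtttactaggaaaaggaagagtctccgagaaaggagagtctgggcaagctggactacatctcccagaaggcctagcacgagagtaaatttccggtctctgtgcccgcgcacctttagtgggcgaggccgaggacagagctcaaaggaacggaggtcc
Ndufa6 (chr15:82354292-82354541, minus strand): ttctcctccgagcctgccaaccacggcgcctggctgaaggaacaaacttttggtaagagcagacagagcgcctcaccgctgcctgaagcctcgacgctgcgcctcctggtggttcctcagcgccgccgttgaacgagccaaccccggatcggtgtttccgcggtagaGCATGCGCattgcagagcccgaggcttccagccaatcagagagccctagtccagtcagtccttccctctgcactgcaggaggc
Ndufa8 (chr2:36049339-36049588, minus strand): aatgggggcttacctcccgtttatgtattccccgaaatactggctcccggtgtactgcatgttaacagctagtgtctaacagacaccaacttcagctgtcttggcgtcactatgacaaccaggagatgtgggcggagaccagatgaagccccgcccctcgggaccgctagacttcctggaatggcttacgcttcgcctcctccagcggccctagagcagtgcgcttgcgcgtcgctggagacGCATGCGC

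The windows of Ndufa9 and Ndufv1 held none of these letters. The Nrf1 letters stood in 4 of 33 Nduf windows (12.1%), those of Ndufa6, Ndufa8, Ndufa11 and Ndufaf4, and in 2.32% of 27025 windows of all genes. In Ndufa8 they begin 8 bases before the gene start, and in Ndufa6 83 bases before it. The Yy1 letters stood in 1 Nduf window (3.03%), that of Ndufa7, against 1.04% of all, and the Gabpa and Esrra letters in 0 Nduf windows against 2.93% and 0.366%. The Nduf windows were richer in G and C, with a median of 59.2% against 52% over all genes. The 4 genes with Nrf1 letters differed between genotypes by -0.25 ± 0.17 (Ndufa6), -0.27 ± 0.17 (Ndufa8), -0.08 ± 0.15 (Ndufa11) and -0.03 ± 0.20 (Ndufaf4), values that lie on both sides of the family's median.

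Ndufa9, an accessory subunit of the peripheral arm at its joint with the membrane arm, was the gene past the threshold. Its level was 6.75, 6.75 and 6.75 on wild-type arrays and 6.24, 6.19 and 6.28 on mutant arrays. The groups did not overlap, and the 3 wild-type values were nearly equal (SD 0.0043, n = 3), against an SD of 0.044 in mutants. The difference was -0.51 ± 0.14 (95% interval -0.81 to -0.21), or 29.8% lower (limma with Benjamini-Hochberg, adjusted p = 0.0472). The call was lost in limma fits without any 1 of the 6 arrays (adjusted p between 0.066 and 0.18), with replicates 2 and 3 alone (0.0989), with no filter on dim probes (0.0664) and with no intensity trend in the variance (0.243), while the difference stayed between -0.53 and -0.48 over 21 alternatives.

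The Ndufv genes encode the NADH-binding tip of the peripheral arm. Ndufv1, the core subunit that holds the flavin, was at 5.70, 6.07 and 5.93 in wild type and 5.36, 5.47 and 5.57 in mutants. Every mutant array lay below every wild-type array, and the difference was -0.43 ± 0.14 (limma, adjusted p = 0.117). Ndufv2, a core subunit with an iron-sulfur cluster, was at 7.75, 7.89 and 7.84 in wild type and 7.61, 7.37 and 7.34 in mutants. Its groups also did not overlap, with the mutant array of replicate 1 nearest to wild type (difference -0.39 ± 0.17, adjusted p = 0.276). The median of this pair was -0.41. Ndufv1 passed after quantile normalization and after cyclic loess (limma, adjusted p = 0.0466 and 0.0347), among adjusted p from 0.0347 to 0.384 over 21 alternatives, and Ndufv2 passed in none of them.

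All 6 Ndufs genes had a negative difference, in a narrow range from -0.30 to -0.18 with a median of -0.23. They hold most of the iron-sulfur clusters and the quinone site. Ndufs1, the largest core subunit, was at 5.08, 5.41 and 5.38 in wild type and 5.06, 4.95 and 4.96 in mutants. The lowest wild-type array lay just above the highest mutant array, and the difference was -0.30 ± 0.14 (limma, adjusted p = 0.288). Groups did not overlap either for Ndufs7, the core subunit with the last cluster before ubiquinone (-0.19 ± 0.15), or for Ndufs6, a zinc-binding accessory subunit (-0.18 ± 0.17; limma, adjusted p = 0.666). In Ndufs6 the mutant arrays were at 7.40, 7.32 and 7.36 and the wild-type arrays at 7.45, 7.77 and 7.42, so that 1 wild-type array carried most of the difference. Ndufs8, a core subunit with a pair of clusters, differed by -0.23 ± 0.19 with overlapping groups. Its mutant replicate 1 stood at 5.75, below the other mutant arrays at 6.41 and 6.44. Ndufs3, a core subunit of the quinone module, differed by -0.22 ± 0.14, and its second probe by -0.08 ± 0.16. Ndufs4, an accessory subunit, differed by -0.28 ± 0.14.

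The 12 Ndufa genes had a negative difference in 12 of 12, with a median of -0.14 and a range from -0.51 to -0.0047. Leaving out wild-type replicate 1 moved it to -0.24, and leaving out wild-type replicate 2 to -0.09. After Ndufa9, the most negative was Ndufa1, a small membrane arm subunit, with 7.62, 7.78 and 7.74 in wild type and 7.36, 7.30 and 7.47 in mutants. Its groups did not overlap (-0.34 ± 0.17; limma, adjusted p = 0.331). Ndufa6, which sits on the peripheral arm, was also lower on every mutant array (-0.25 ± 0.17). Ndufa8, a membrane arm subunit, and Ndufa2, a peripheral arm subunit, differed by -0.27 ± 0.17 and -0.22 ± 0.19 with overlapping groups. In Ndufa2 wild-type replicate 1, at 7.14, was the lowest of all 6 arrays. Ndufa3, a membrane arm subunit, had the difference nearest 0, -0.0047 ± 0.20 (95% interval -0.43 to 0.42; limma, adjusted p = 0.995). It was at 7.82, 8.26 and 7.91 in wild type and 7.84, 8.07 and 8.07 in mutants. Ndufa12, which replaces an assembly factor late in assembly, was at 8.07, 8.31 and 8.20 in wild type and 7.92, 8.10 and 8.18 in mutants. Its groups overlapped (-0.12 ± 0.19; limma, adjusted p = 0.814), and its second probe lay below the low-signal limit on all arrays. For the other 5, Ndufa5, Ndufa7, Ndufa10, Ndufa11 and Ndufa13, the difference lay between -0.14 and -0.05.

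Ndufb genes encode subunits of the far end of the membrane arm. Of 7, 6 had a negative difference, and the median was -0.20. The most negative was Ndufb9, at 8.02, 8.32 and 8.19 in wild type and 7.44, 8.01 and 8.01 in mutants. Its groups did not overlap, but mutant replicate 1 stood well below the other 5 arrays (-0.36 ± 0.21; limma, adjusted p = 0.434). Ndufb7, a subunit on the outer face of the membrane, also had its lowest value there, 3.90 against 4.46 and 4.49 on the other mutant arrays (-0.20 ± 0.17). Ndufb11 and Ndufb5, with overlapping groups, differed by -0.32 ± 0.19 and -0.25 ± 0.16. Ndufb4 differed by -0.15 ± 0.18 and Ndufb2 by -0.01 ± 0.17. Ndufb3 was at 4.08, 4.27 and 4.09 in wild type and 4.12, 4.47 and 4.13 in mutants, a positive difference of 0.09 ± 0.14 with overlapping groups (limma, adjusted p = 0.815). The median of the 7 genes was -0.07 without mutant replicate 1 and -0.30 without mutant replicate 3.

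Ndufc2, of the membrane arm, was at 5.24, 5.59 and 5.58 in wild type and 4.88, 5.33 and 5.14 in mutants. Only wild-type replicate 1 fell within the mutant range (-0.35 ± 0.16; limma, adjusted p = 0.265). Ndufc1, its neighbour in the complex, had the largest spread between wild-type arrays of the 38 genes, at 6.78, 7.76 and 7.53, and differed by -0.07 ± 0.24. Ndufab1, the mitochondrial acyl carrier protein that complex I contains, was at 1.83 ± 0.21 in wild type and 1.72 ± 0.18 in mutants (SD, n = 3 each), and differed by -0.11 ± 0.23. Its second probe, above the low-signal limit on 5 of 6 arrays, differed by 0.15 ± 0.33.

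All 6 Ndufaf genes tested, which encode assembly factors, had a negative difference, with a median of -0.10. That median was -0.20 after quantile normalization, -0.16 after cyclic loess, -0.18 with array weights and -0.19 with replicates 2 and 3 alone. With 1 array left out it was -0.22 (wild-type replicate 1), -0.06 (wild-type replicate 2) and -0.16 (mutant replicate 2). It was -0.26 with the dimmer probe of Ndufaf5 (-0.42 ± 0.57) and of Ndufaf7, the only genes of this group with a second probe. Ndufaf1, which works with other factors on an early membrane arm intermediate, was at 4.82, 5.02 and 4.99 in wild type and 4.59, 4.54 and 4.63 in mutants. Its groups did not overlap (-0.36 ± 0.13; limma, adjusted p = 0.149), and it passed after quantile normalization (0.028) and cyclic loess (0.0425), among adjusted p up to 0.422 over 21 alternatives. Ndufaf4, an early assembly factor, differed by -0.03 ± 0.20 (limma, adjusted p = 0.963), and replicate 2 was the highest array in both genotypes (3.99, 4.70 and 4.13 in wild type, 3.92, 4.56 and 4.24 in mutants). Ndufaf5, which hydroxylates Ndufs7, was at 4.55, 4.98 and 5.05 in wild type and 4.73, 4.86 and 4.75 in mutants. Its mutant arrays all lay within the wild-type range (-0.08 ± 0.15), and its second probe was below the low-signal limit on every array with a value. Ndufaf6, Ndufaf7 and Ndufaf3 differed by between -0.19 and -0.06. The second probe of Ndufaf7, a methyltransferase, differed by -0.33 ± 0.20.

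Among 9 further assembly factors with other symbols, of 13 on the list, 1 fell (11.1%) and 0 rose, against 1.59% and 5.67% of all genes. The difference was negative in 7, with a median of -0.21. The gene that fell was Acad9, a relative of the acyl-CoA dehydrogenases that acts in the same complex as Ndufaf1, at 4.69, 4.70 and 4.87 in wild type and 4.26, 4.39 and 4.14 in mutants. The groups did not overlap (-0.49 ± 0.13; limma, adjusted p = 0.0484). Acad9 did not pass in 12 of 21 alternatives, among them each fit that lacked 1 array (adjusted p between 0.0557 and 0.216). Nubpl, an iron-sulfur carrier for complex I, differed by -0.47 ± 0.18 without passing (limma, adjusted p = 0.181).

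The last 2 genes are not subunits. Ndufa4l2, a hypoxia-inducible paralogue of Ndufa4, was at 3.02, 2.88 and 3.09 in wild type and 2.99, 3.64 and 2.88 in mutants. Mutant replicate 2 alone was high (0.17 ± 0.20; limma, adjusted p = 0.730). The probe annotated to Ndufs5-ps, a processed pseudogene, differed by 0.07 ± 0.16, and whether its signal came from the pseudogene or from a near-identical parent transcript was not tested. Ndufs5 itself, Ndufb1, Ndufb6 and Ndufb10 and the 7 mitochondrially encoded subunits were not analysed here, and neither were Ndufa4, Ndufb8 and Ndufv3, whose probes carry several symbols.

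**Figure D2:**
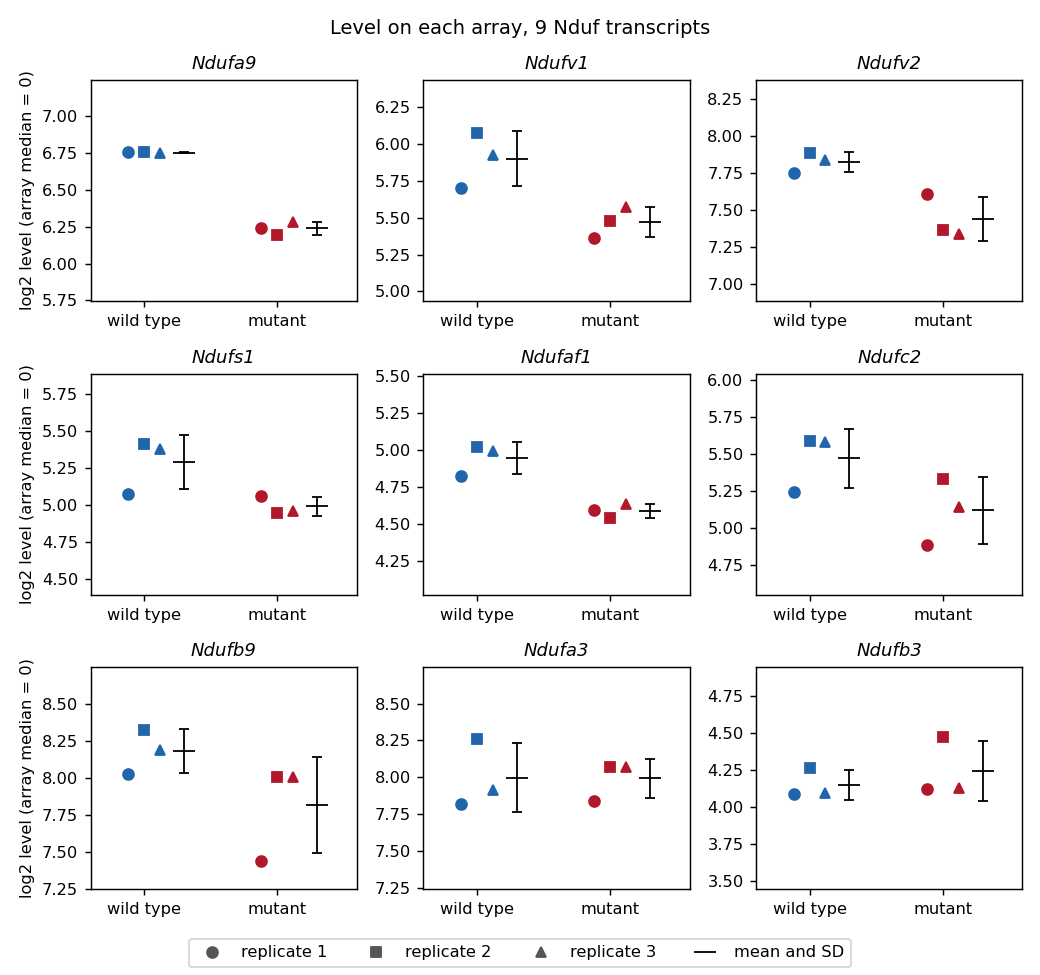
Log2 level (array median at 0) on each of the 6 arrays for 9 Nduf genes, with symbols for the replicate number and the mean and SD of each genotype beside the points. The vertical axis spans the same number of log2 units in each panel. In Ndufa9 the wild-type points coincide at 6.75 above mutant points at 6.19 to 6.28, while in Ndufa3 and Ndufb3 the genotypes overlap.

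By position in the complex, 14 genes of the peripheral arm had a negative difference in 14 of 14 (median -0.23), and groups did not overlap in 7 of 14. For the 6 core subunits measured, all of them in this arm, these were 6 of 6 (median -0.26) and 4 of 6. For its 8 accessory subunits they were 8 of 8 (median -0.20) and 3 of 8. For 15 genes of the membrane arm, all of them accessory, they were 14 of 15 (median -0.15) and 2 of 15. The arms as measured thus differ in core content as well. Groups did not overlap in this direction in 8.89% of all genes with 6 values and in 20.1% of the genes of like brightness. The difference between arms was not tested, since genes of 1 animal are not replicates. The values by array show what lies behind the medians. Each gene was set against its own mean over the 6 arrays, and the median deviation was taken per array. For the peripheral arm it was 0.02, 0.26 and 0.11 log2 units on wild-type arrays and -0.15, -0.12 and -0.10 on mutant arrays, so that the genotypes did not overlap. For the membrane arm it was -0.12, 0.24 and 0.13 in wild type and -0.23, 0.01 and 0.04 in mutants, and wild-type replicate 1 fell between the mutant arrays. After quantile normalization the peripheral arm was at 0.10 to 0.13 in wild type and -0.11 to -0.08 in mutants. The membrane arm still overlapped there, with -0.03 on wild-type replicate 1 against 0.01 on mutant replicates 2 and 3, and after cyclic loess, with 0.02 against 0.03 on mutant replicate 3.

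**Figure D3:**
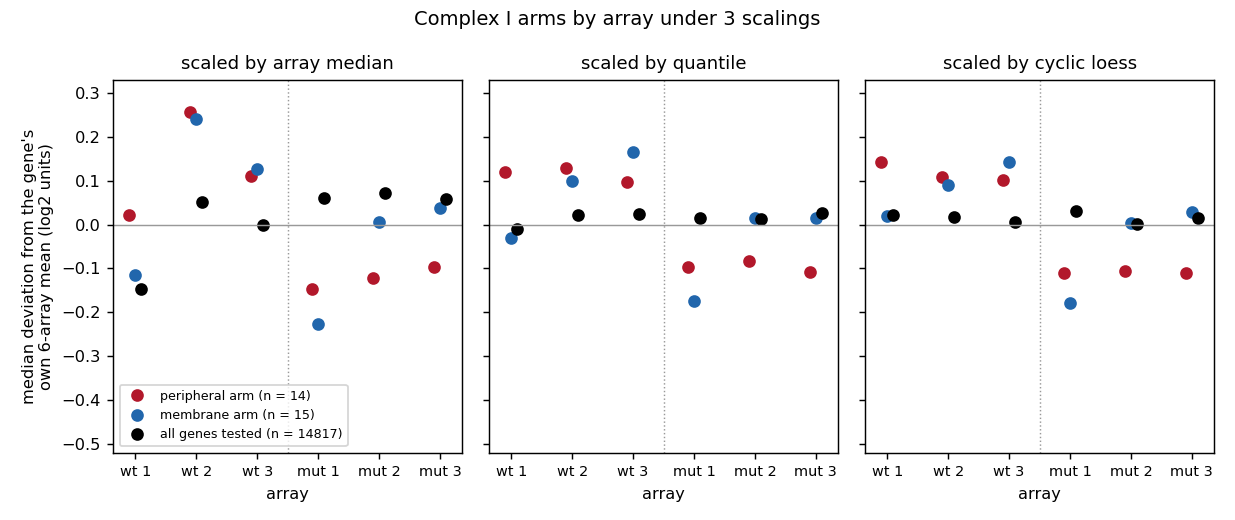
Median deviation of complex I genes from their own mean over 6 arrays (log2 units, vertical axis) on each array (horizontal axis; wt, wild type; mut, mutant), for the peripheral arm, the membrane arm and all genes tested, under 3 scalings. Peripheral arm points lie above 0 on the 3 wild-type arrays and below 0 on the 3 mutant arrays in each panel, and mutant replicate 1 is the lowest array for the membrane arm in each panel.

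Arrays also differed within a genotype. Over the 38 genes, wild-type replicate 2 was the highest of the 6 arrays in 28 genes, and wild-type replicate 1 was the lowest of the 3 wild-type arrays in 30. Mutant replicate 1 was the lowest of all 6 in 14. The median over all genes tested was also lowest on wild-type replicate 1, at -0.15, against -0.0013 to 0.07 on the other arrays. The median difference of the Nduf genes was -0.26 without wild-type replicate 1, but -0.10 when wild-type replicate 2 was left out and -0.10 when mutant replicate 1 was. At an unadjusted p of 0.05, 12, 3 and 4 Nduf genes were then lower. The share of all genes at that p was not taken in these fits, so the counts are not a result about the Nduf genes. Past the adjusted threshold 248, 149 and 158 of all genes were lower in them, against 235 in the reported fit. Replicate 1 of each genotype further differed from the rest in its sex-linked probes, with Xist at 2.21 and 3.00 against -0.85 to -0.21 and the Y-linked Eif2s3y at -1.79 and -1.79 against 3.01 to 3.46. The difference between the 2 arrays of replicate 1 was negative in 27 of 38 Nduf genes (median -0.13), where the median of all genes was 0.20. Within replicates 2 and 3 the difference was negative in 35 of 38 (median -0.20), where the median of all genes was 0.04.

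**Figure D4:**
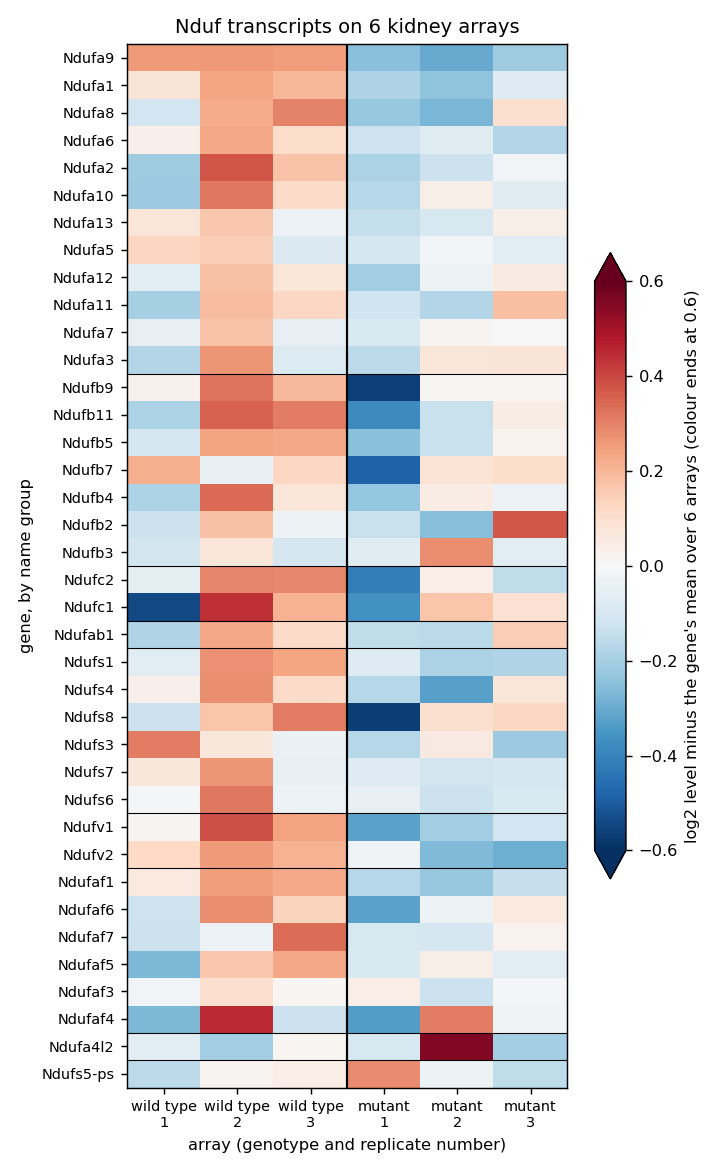
Log2 level minus the gene's mean over the 6 arrays, as colour, for 38 Nduf genes (rows, by name group and then by difference) on 3 wild-type and 3 mutant arrays (columns). Red is above and blue below the gene's mean; wild-type replicate 2 is mostly red, wild-type replicate 1 is mixed, and the darkest blue fields are Ndufb9 and Ndufs8 on mutant replicate 1 and Ndufc1 on wild-type replicate 1.

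Transcripts of the other respiratory complexes had negative medians too. Complex II, which oxidises succinate, had 2 of 6 genes lower (33.3%) and 0 higher, with a median of -0.33. Of all genes 1.59% were lower and 5.67% higher, and of the genes of like brightness to the Nduf genes 8.07% were lower. The 2 lower genes were Sdha, its flavoprotein, with -0.78 ± 0.19, and Sdhc, a membrane anchor, with -0.55 ± 0.13 (limma, adjusted p = 0.0242 and 0.0265). Each call was lost in 6 of 21 alternatives. With 1 array left out, Sdha passed only without wild-type replicate 2 or 3 (adjusted p up to 0.119 otherwise), and Sdhc only without wild-type replicate 1 (up to 0.117 otherwise). In complex III, 0 of 12 genes passed, with a negative difference in 10 and a median of -0.14. At an unadjusted p of 0.05, 1 was lower and 1 higher, against 6.29% and 14.6% of all genes. The higher gene was Uqcc2, an assembly factor with mutant arrays all above wild type (0.45 ± 0.18; limma, adjusted p = 0.194). In complex IV, 0 of 20 passed, with a negative difference in 14 and a median of -0.14. Of these 20 genes, 15 lay above the low-signal limit on every array, against 38 of 38 Nduf genes. In ATP synthase, 0 of 17 passed, with a negative difference in 16 and a median of -0.26. The genes of smallest p in these lists were Uqcc1, an assembly factor of complex III (-0.46 ± 0.17), Cox7a1, a complex IV subunit (-0.33 ± 0.14), and Atp5pb, of the stator of ATP synthase (-0.97 ± 0.30; limma, adjusted p = 0.179, 0.227 and 0.0860). Atp5pb was at 8.41 on wild-type replicate 1 against 7.25 and 6.90 on the other wild-type arrays, and differed by -0.52 without that array. It passed with the replicate number as a block (limma, adjusted p = 0.0134). The median of the Nduf genes (-0.19) thus fell between those of complexes III and IV and those of complex II and ATP synthase, and no test of these differences between lists was made.

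**Figure D5:**
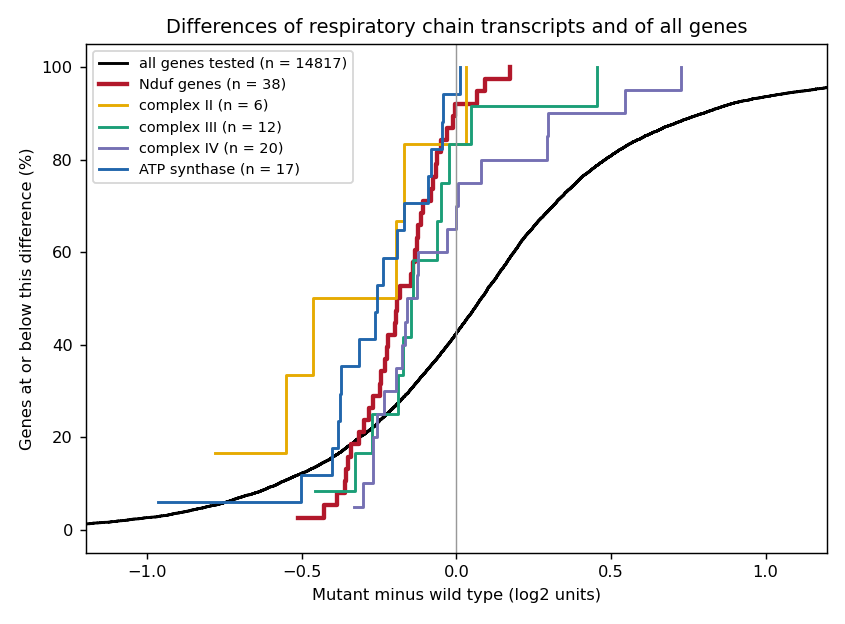
Cumulative share of genes (vertical axis, percent) at or below a given difference between genotypes (horizontal axis, mutant minus wild type in log2 units) for Nduf genes, genes of complexes II, III and IV and of ATP synthase, and all genes tested. At 0 the curve of all genes stands at 42.5% and that of the Nduf genes at 92.1%; the curves are drawn between -1.2 and 1.2, and genes beyond are not shown.

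Regulators and cofactor pathways of complex I did not pass. Of 13 regulators of mitochondrial biogenesis, 0 passed, with a median difference of -0.09. The smallest p belonged to the coactivator Ppargc1b (-0.46 ± 0.20; limma, adjusted p = 0.256). Ppargc1a, the related coactivator, differed by 0.54 ± 0.45 with 3 of 6 arrays above the low-signal limit, and its receptor partner Esrra by -0.27 ± 0.16 with groups that did not overlap. Nrf1 and Gabpa, transcription factors of nuclear genes for the respiratory chain, lay below the limit on all arrays with a value. Of 11 genes of iron-sulfur cluster assembly, 0 passed, with a median of -0.19, and the chaperone Hspa9 had the smallest p (-0.41 ± 0.15; limma, adjusted p = 0.177).

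Markers of several kidney cell types moved with genotype in the same RNA. Of all genes tested, 1.59% fell and 5.67% rose. Of 12 proximal tubule markers, 7 fell (58.3%) and 0 rose, with a median of -0.79. Their summed linear level, in multiples of the array median, was 1026 to 1138 on wild-type arrays and 503 to 605 on mutant arrays, and 10 of 12 were above the low-signal limit on every array. All 5 stromal markers rose, with a summed level of 98.7 to 117 in wild type and 353 to 368 in mutants. Of 5 leukocyte markers, 2 rose, with sums of 8.45 to 10.4 and 21.0 to 34.6, and 1 of 5 was above the limit on every array. Sums for the thick ascending limb overlapped between genotypes (272 to 297 in wild type, 219 to 310 in mutants), as did those for the distal convoluted tubule (252 to 405, 285 to 379), podocytes (7.35 to 8.59, 6.41 to 9.04) and endothelium (38.3 to 40.9, 40.7 to 53.6). In each of these first 2 lists 1 of 4 genes nevertheless fell with groups that did not overlap, Egf in the thick ascending limb (-1.02 ± 0.14; limma, adjusted p = 0.000747) and Pvalb in the distal convoluted tubule (-1.44 ± 0.25; 0.00337). In endothelium 0 of 4 genes passed, with a median of 0.37. At an unadjusted p of 0.05 (limma), 3 of these 4 were higher, against 14.6% of all genes. For 2 of them the mutant arrays all lay above the wild-type arrays, as they did in 17.8% of all genes with 6 values. The podocyte sum rests on 2 genes. Collecting duct sums were 44.8 to 50.8 and 51.3 to 81.4. In whole-tissue RNA, fewer cells of a type and less RNA per cell cannot be told apart, and the part of these markers in the Nduf differences was not tested.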

How the data were processed

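The deposited table gave 1 linear intensity per probe and array. Per the labels' protocols the arrays were CodeLink, a platform with 1 labelled cRNA per array. The scanner software, background method and scaling were not stated in any label or header. Array medians of 0.994 to 0.997 and values below 0 show that the authors' values were background-subtracted and scaled. Here each array was divided by its median and put on a log2 scale, with no value given to intensities of 0 or less and a floor at the 10th percentile (0.29 of the median). Of 34937 probes, 34445 had 2 or more values in both genotypes, and 25834 remained once the dimmest 25% by mean level were left out. The low-signal limit was 1.51 times the array median (0.60 in log2), set from the values as their mode plus 3 times the spread below it. Differences were fitted with limma 3.58.1 in R 4.3.3 (lmFit and eBayes with an intensity trend, two-sided), and adjusted over all probes by Benjamini-Hochberg. A gene was read from its brightest probe by mean level. Symbols came from the platform annotation, which gives 21590 probes a single symbol, 681 several and 12666 none. With 3 arrays a genotype, their number limits the precision.

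The members, lists and tests were chosen with earlier results of these data known. Every Nduf gene could be named, and values on every array were due for those past the threshold and, in each name group, for the gene with the most negative and the most positive difference and the highest level. From other lists the genes past the threshold could be named, or else the gene of smallest p; for most marker lists, counts and sums stand in their place. Nubpl, Uqcc2, Ppargc1a, Esrra, Nrf1 and Gabpa are named besides, after their values were seen. Replicate numbers in the labels are shared by the genotypes, and the reported fit did not use them as pairs. Deviations from the genotype mean correlated at 0.07, 0.01 and 0.07 over all probes tested. These probes also carry measurement noise, so low correlations cannot exclude a pairing. Both arrays of replicate 1 shared the sex-linked pattern given above. With the replicate number as a block, 363 genes were lower and 1084 higher, against 235 and 840 in the reported fit. The series text gives different animals for the arrays of a genotype, so the spread is biological and technical together.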

Additional observations from a re-analysis of the deposited data

How the results depend on the processing

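The median difference of the Nduf genes was negative in all 21 alternatives that give one, from -0.26 to -0.10, and 0 genes were higher in mutant kidney in all 23 (limma; 0 also at an unadjusted p of 0.05). The median over all genes moved from 0.08 to -0.01 under either quantile normalization or cyclic loess, and the Nduf median to -0.17 and -0.18. The count of Nduf genes lower was 1 in the reported fit. Quantile normalization gave 3 and cyclic loess gave 3, where Ndufv1 and Ndufaf1 joined Ndufa9. It was 0 with no filter on dim probes and 0 with no intensity trend in the variance. It was also 0 with only replicates 2 and 3 of each genotype, and 0 without each array in turn. At an unadjusted p of 0.05, 5, 1, 6 and 2 to 12 Nduf genes were lower in these fits. Past the adjusted threshold 246, 6, 208 and 113 to 248 of all genes were lower in them. The replicate block left the count at 1 (Ndufa9, adjusted p = 0.0404), with 363 genes lower and 1084 higher over all genes, and so did replicate 1 against replicates 2 and 3 as a block (0.0313), which was chosen after seeing the data. The cause of these changes was not tested. The median SE over the Nduf genes was 0.17 log2 units, so that differences as small as their median are near 1 SE.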
